A study of Mus musculus with 4 samples.

Results

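The 10 genes described here belong to the DNA damage checkpoint: the kinases Atm, Atr, Prkdc, Chek1 and Chek2, and the partner, mediator and chromatin genes Atrip, Topbp1, Mdc1, Trp53bp1 and H2afx. They were taken by gene name from the spots of 4 two-colour expression arrays. All 10 were on the array, among 34797 named genes, and 12 of their 13 probes passed the filter on dim signals, which left 19583 genes in all. The cells were neural stem/progenitor cells (NSPCs), cultured with EGF and FGF as neurospheres from mouse embryos of embryonic day 13.5, with the strain labelled Slc:ICR. The Trp53-/- embryos came from a separate line of heterozygous mice, so line and genotype cannot be told apart. NSPCs were wild-type or Trp53-/-, and both genotypes were left untreated or received 20 μM PJ34, an inhibitor of poly(ADP-ribose) polymerases. The length of the treatment and the part of Trp53 that is deleted were not given in the sources used here. On each array the RNA of PJ34-treated cells carried Cy5 and that of the untreated cells of the same genotype carried Cy3. Each genotype had 2 arrays from independently prepared RNA (n = 2), so the number of arrays limits the precision. The p-values rest on the spread between these preparations, pooled over both genotypes and moderated by that of all kept probes. An SD printed beside a q is that of the 2 arrays of a genotype only.

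Atm, Atr and the catalytic subunit of DNA-dependent protein kinase (Prkdc) are large kinases that sense DNA damage. Atm and DNA-PK respond mainly to double-strand breaks, and Atr, held by its partner Atrip and switched on by Topbp1, to single-stranded DNA at stalled replication forks. Atm phosphorylates the histone variant H2A.X (H2afx) beside a break, Mdc1 binds that mark, and Trp53bp1 is recruited after it. Chek2 and Chek1 carry the signal of Atm and Atr to p53 and to the machinery of mitotic entry. This network acts mostly through phosphorylation, which arrays of mRNA do not see, so the values below are levels of transcripts only.

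The dyes were not swapped. An effect of PJ34 and a dye bias of the probe cannot be told apart in either genotype by itself, while a bias of the same size in both drops out of their difference. Whether it was of the same size was not tested. The Trp53 transcript was read in the control channel at log2 intensities of 8.28 and 8.51 in wild-type and 7.56 and 7.82 in Trp53-/- cells, and whether its probe lies within the deleted part is not known. Cdkn1a, the p53 target that encodes the inhibitor p21, had log2 ratios of PJ34 over control of 1.84 and 1.23 on the wild-type arrays and of -0.48 and -0.74 on the Trp53-/- arrays. Mdm2, the ubiquitin ligase of p53, had 1.16 and 0.89 in wild-type and 0.01 and -0.07 in Trp53-/- cells. The 10 NSPC markers were well above background in both channels of every array. Of the microglial and endothelial markers, 2 to 3 of 6 and 1 to 2 of 5 were detected. Oligodendrocyte lineage markers were all detected, 8 of 8. Of the neuronal and astrocyte markers, 5 to 7 of 7 and 5 to 6 of 6 were. Trp53-/- replicate 2 stood apart: the Y-linked Eif2s3y and Ddx3y had log2 ratios of 4.22 and 3.12 and Xist of -3.08, while on the other 3 arrays they lay between -0.20 and 0.84, so its treated and control cells differed in sex-linked transcripts as cells of different sex do. Results for Trp53-/- are therefore given also without it.

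The sequences below show what was measured and what precedes the genes that the results turn on. Probe positions refer to the mouse build mm9, as the files give them. The probes of Atm and Chek2 shown here are open reading frames over their whole length in at least 1 frame, and that of Chek2 runs through the catalytic loop of the kinase domain. Atm as a gene was read below from its brighter probe, A_52_P400509, which has no frame open over its whole length and is not printed. The Atm probe at chr9:53256167-53256226 on the minus strand and the Chek2 probe at chr5:111294547-111294606 on the plus strand read as follows.
Atm A_52_P369581: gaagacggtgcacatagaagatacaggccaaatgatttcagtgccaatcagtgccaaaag
Chek2 A_51_P137111: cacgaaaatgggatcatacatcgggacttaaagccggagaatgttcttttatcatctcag

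Of the 10 genes, 8 have a RefSeq promoter on GRCm38.p6 in the table used, which does not list Prkdc or H2afx. The E2F-type words TTTCCCGC, TTTGGCGC, TTTCGCGC and TTTGCCGC were searched on both strands from 250 bases before to 50 after the start. They occurred in 3 of the 8 promoters (Mdc1, Topbp1 and Chek2) and in 2.26% of 32851 promoters. E2F factors are known to drive genes of DNA replication. The 250 bases before the start are printed for these 3 genes and for Atm, whose response differed most between genotypes, with the matched words in capitals.
Mdc1 (chr17:35841248-35841497, plus strand): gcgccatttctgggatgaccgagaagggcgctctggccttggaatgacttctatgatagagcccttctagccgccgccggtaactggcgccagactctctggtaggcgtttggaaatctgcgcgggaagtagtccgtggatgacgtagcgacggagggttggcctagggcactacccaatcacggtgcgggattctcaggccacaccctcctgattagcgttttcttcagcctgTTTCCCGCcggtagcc
Topbp1 (chr9:103305077-103305326, plus strand): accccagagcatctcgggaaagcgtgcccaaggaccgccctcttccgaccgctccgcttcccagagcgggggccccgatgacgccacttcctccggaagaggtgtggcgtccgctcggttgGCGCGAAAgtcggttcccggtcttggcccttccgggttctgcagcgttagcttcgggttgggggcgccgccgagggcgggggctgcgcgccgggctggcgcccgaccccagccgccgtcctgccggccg
Chek2 (chr5:110839733-110839982, plus strand): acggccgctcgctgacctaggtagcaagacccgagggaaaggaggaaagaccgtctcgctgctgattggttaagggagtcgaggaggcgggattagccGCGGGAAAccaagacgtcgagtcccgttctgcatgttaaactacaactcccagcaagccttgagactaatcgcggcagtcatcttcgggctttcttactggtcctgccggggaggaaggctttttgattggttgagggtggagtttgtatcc
Atm (chr9:53536672-53536921, minus strand): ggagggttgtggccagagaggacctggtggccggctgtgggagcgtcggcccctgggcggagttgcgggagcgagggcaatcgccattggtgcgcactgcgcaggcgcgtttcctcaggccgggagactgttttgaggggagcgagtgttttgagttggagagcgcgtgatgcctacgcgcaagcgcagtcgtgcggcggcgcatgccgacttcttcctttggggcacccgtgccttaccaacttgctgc
Counted from the start, the word begins at position -16 in Mdc1, at -129 in Topbp1 and at -152 in Chek2, and in Topbp1 and Chek2 it is the reverse complement. The CCAAT box (CCAAT, both strands) was found in Chek2, Atm, Atrip and Mdc1, 4 of 8, and in 37.4% of all promoters. The p53 response element, with a spacer of up to 13 bases, was in none of the 8 and in 0.0731% of all promoters. TTTGAA and TGACGTCA were in none of the 8 and in 17.9% and 1.79% of all. These are matches of letters in 300 bases and were not related to binding.

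In wild-type NSPCs none of the 10 checkpoint transcripts rose and 2 fell after PJ34, H2afx and Chek2. In Trp53-/- NSPCs 4 rose, Prkdc, Atm, Topbp1 and Mdc1, and none fell. Without Trp53-/- replicate 2, 3 of these rose, all but Mdc1. That fit, with a lone Trp53-/- array, called 3.39% of all genes higher and 3.73% lower in that genotype, so a call lost in it does not show that the change rests on replicate 2. A gene is said to have risen or fallen when its Storey q over all kept probes, from limma's moderated test, was below 0.05. By this rule, with all arrays, 13.3% of the 19583 genes rose and 11% fell in wild-type, and 12.2% rose and 10.2% fell in Trp53-/- cells. Of the 10, none was called in both genotypes, and 4 were called in neither. None of the 10 passed the stricter criteria of the study's methods, which also ask for more than a 2-fold change. Of all genes, 0.286% rose and 0.214% fell by those criteria in wild-type, and 0.0919% and 0.281% in Trp53-/-. The median log2 ratio of the 10 was -0.07 in wild-type and 0.13 in Trp53-/- cells, against 0.03 over all genes in each.

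**Figure D1:**
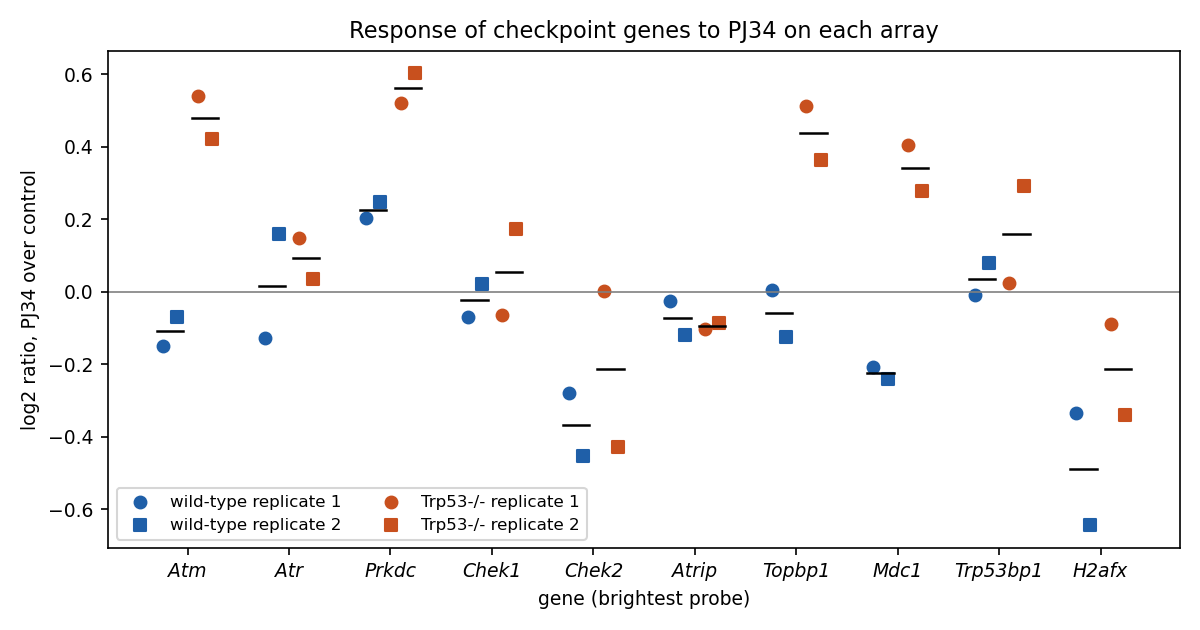
The vertical axis is the log2 ratio of PJ34 over control of each gene's brightest probe, 1 point per array, with the mean of a genotype as a black line. Atm, Prkdc, Topbp1 and Mdc1 have both Trp53-/- arrays (orange) above both wild-type arrays (blue), and H2afx and Chek2 lie lowest in wild-type.

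Atm, the kinase that responds to double-strand breaks, was read by 2 probes. The brighter, A_52_P400509 (chr9:53245871-53245930, minus strand), had log2 ratios in wild-type of -0.15 and -0.07 and in Trp53-/- of 0.54 and 0.42. The wild-type arrays lay just below 0 and the Trp53-/- arrays well above it, without overlap. Atm thus rose 1.39-fold in Trp53-/- cells (log2 0.48 ± 0.08, SD, n = 2, q = 0.00382), and its wild-type change of -0.11 did not pass the test (q = 0.238). The second probe, printed above, gave 0.01 and -0.15 in wild-type and 0.36 and 0.33 in Trp53-/- cells. It is spotted 10 times per array, and its spots ranged from 0.17 to 0.48 on Trp53-/- replicate 1 and from 0.22 to 0.47 on replicate 2, all above 0. Its mean rose by 0.34 on the log2 scale in Trp53-/- cells (q = 0.0158), and its arrays did not overlap between genotypes either. Without Trp53-/- replicate 2 the brighter probe still passed (q = 0.0226).

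Prkdc, the catalytic subunit of the end-joining kinase DNA-PK, was above 0 on all 4 arrays, which 24.5% of all genes were. Its probe (A_51_P241667, chr16:15839317-15841922, plus strand) covers a stretch longer than its 60 bases and is spotted 10 times. The log2 ratios were 0.20 and 0.25 in wild-type and 0.52 and 0.60 in Trp53-/- cells. Every spot of every array lay above 0, from 0.09 to 0.40 in wild-type and from 0.35 to 0.78 in Trp53-/- cells. Prkdc rose 1.48-fold in Trp53-/- cells (log2 0.56 ± 0.06, SD, n = 2, q = 0.0019), while its wild-type mean of 0.23 ± 0.03 missed the threshold (q = 0.0597). The Trp53-/- call held without replicate 2 (q = 0.0266).

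Atr, the kinase of stalled replication forks, had log2 ratios in wild-type of -0.13 and 0.16 and in Trp53-/- of 0.15 and 0.04 (A_52_P428125, chr9:95851956-95852015, plus strand). The genotypes overlapped and neither mean passed the test, with q of 0.479 and 0.287. A second Atr probe was not well above background in the control channel of any array and was left out. Atrip, the obligate partner of Atr, had -0.02 and -0.12 in wild-type and -0.10 and -0.09 in Trp53-/- cells. Atrip was below 0 on all 4 arrays, as 17.4% of all genes were, by amounts that did not pass the test (q of 0.327 and 0.256).

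Topbp1, the activator of Atr, had log2 ratios in wild-type of 0.01 and -0.13 and in Trp53-/- of 0.51 and 0.36 (A_51_P302651, chr9:103252324-103252383, plus strand). It rose 1.36-fold in Trp53-/- cells (log2 0.44 ± 0.11, SD, n = 2, q = 0.00634) and its wild-type mean of -0.06 was within the spread of its arrays. The Trp53-/- call held without replicate 2 (q = 0.0297) and was lost without replicate 1 (q = 0.0768). In the same cells the ratios of Atr and Atrip lay between -0.10 and 0.15.

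Chek1, the kinase downstream of Atr, was too dim for a fold change. Its probe was not well above background in the untreated channel of either wild-type array, and in Trp53-/- cells it was detected on replicate 1 only. Chek2, the kinase downstream of Atm, had log2 ratios in wild-type of -0.28 and -0.45 and in Trp53-/- of 0.00 and -0.43. Chek2 fell in wild-type to 0.775-fold of control (log2 -0.37 ± 0.12, SD, n = 2, q = 0.0265). In Trp53-/- cells the arrays disagreed, and the mean of -0.21 did not pass the test (q = 0.12), though it did without replicate 1 (-0.43, q = 0.0445) and was 0.00 without replicate 2. The wild-type call was lost without either wild-type array (q of 0.0542 and 0.196).

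Mdc1, the reader of phosphorylated H2A.X, lay on opposite sides of 0 in the 2 genotypes. Its log2 ratios were -0.21 and -0.24 in wild-type and 0.41 and 0.28 in Trp53-/- cells (A_55_P1995165, chr17:35996478-35996537, plus strand). Mdc1 rose 1.27-fold in Trp53-/- cells (log2 0.34 ± 0.09, SD, n = 2, q = 0.0153), and its wild-type mean of -0.22 ± 0.02 missed the threshold (q = 0.0624). Without Trp53-/- replicate 2 the Trp53-/- value was 0.41 and did not pass (q = 0.0775), nor did it without replicate 1 (q = 0.149).

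H2afx, which encodes the histone variant that Atm phosphorylates, was below 0 on all 4 arrays, with -0.33 and -0.64 in wild-type and -0.09 and -0.34 in Trp53-/- cells. It fell to 0.712-fold in wild-type (log2 -0.49 ± 0.22, SD, n = 2, q = 0.00627). The Trp53-/- mean of -0.21 overlapped with wild-type and did not pass (q = 0.105). Without wild-type replicate 2 the wild-type value was -0.33 (q = 0.11). Under median centring instead of loess, the H2afx ratio was 0.25 below the median of all genes in wild-type and 0.14 above it in Trp53-/- cells, so its direction in Trp53-/- cells depends on the scaling. Trp53bp1, which shields broken ends, had -0.01 and 0.08 in wild-type and 0.02 and 0.29 in Trp53-/- cells, and passed in neither genotype (q of 0.437 and 0.156). A second Trp53bp1 probe gave 0.18 and -0.26, then 0.06 and 0.46, and did not pass either.

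The difference of the responses was tested as wild-type minus Trp53-/-. It was below 0 for 9 of the 10 genes, the dim Chek1 among them, and for 10056 of all 19583 genes. The median was -0.22 against -0.01 over all genes. Without Trp53-/- replicate 2 the difference was below 0 for 7 of 10. Only Atm passed the test, with a difference of -0.59 (95% interval -0.87 to -0.30, q = 0.0474), where 0.414% of all genes were called lower and 1.24% higher. The second Atm probe gave -0.41 and did not pass (-0.70 to -0.13, q = 0.135). Mdc1 followed with -0.57 (-0.85 to -0.28, q = 0.0544), Topbp1 with -0.50 (-0.79 to -0.21, q = 0.0871) and Prkdc with -0.34 (-0.62 to -0.06, q = 0.194). These 4 were the genes whose arrays did not overlap between genotypes, 4 of 10, and 45.2% of all genes likewise did not overlap. The Atm call lay close to the threshold: it passed in 5 of 19 alternative analyses, and without either array of either genotype q was between 0.069 and 0.121, while the value stayed between -0.76 and -0.50 in all 19. With the mean of a gene's probes in place of its brightest probe, Mdc1 passed the test of the difference and Atm did not. The intervals of the other 6, the dim Chek1 among them, included 0. They ran for Atr from -0.39 to 0.24, for Atrip from -0.26 to 0.30, for Chek2 from -0.51 to 0.20, for H2afx from -0.61 to 0.06 and for Trp53bp1 from -0.43 to 0.18. By the study's criteria, which ask for a 2-fold difference, none of the 10 was called (0.0306% of all genes lower and 0.439% higher).

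**Figure D2:**
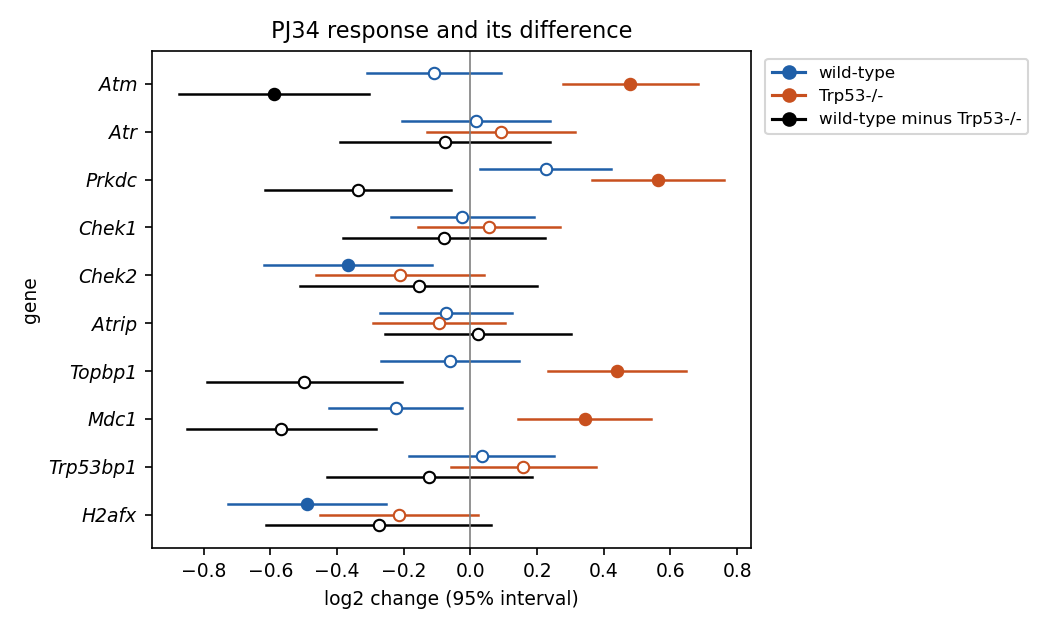
The horizontal axis is the log2 change with its 95% interval from limma, for PJ34 over control in wild-type (blue), in Trp53-/- (orange) and for wild-type minus Trp53-/- (black). Filled points have q below 0.05. The black interval lies wholly below 0 for Atm, Mdc1, Topbp1 and Prkdc, of which only Atm is filled. Chek1 was near background.

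The other genes of the pathway were described by lists. Of the 16 measured genes of Atr activation and replication fork protection, none rose and 11 fell in wild-type (median -0.32), and 4 rose and 2 fell in Trp53-/- cells (median 0.06). Rad9, a subunit of the checkpoint clamp, had -0.76 and -0.83 in wild-type and -0.37 and -0.54 in Trp53-/- cells, and fell in both (q of 0.000289 and 0.0051). Rfc5 and Rfc4, subunits of the clamp loader, fell in wild-type by 0.77 and 0.50 on the log2 scale (q of 0.000399 and 0.00354), and Rfc5 also fell in Trp53-/- cells (-0.32, q = 0.0259). Timeless, of the fork protection complex, had -0.05 and -0.11 in wild-type and 0.58 and 0.39 in Trp53-/- cells, where it rose (q = 0.00412). Rad9b, among the 4, was not well above background in the control channel of any array and was kept through the treated channel of 2 arrays. The 16 differences, that of Rad9b included, were below 0, as 10056 of all 19583 were. Their median was -0.38, and none of them passed the test. Without Trp53-/- replicate 2, 1 rose and none fell in that genotype.

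Of the 15 genes of Atm activation and the ubiquitin pathway at breaks, 1 rose and 4 fell in wild-type, and 4 rose and none fell in Trp53-/- cells. Brcc3 and Bard1, which act in complexes of Brca1, fell in wild-type (log2 -0.46, q = 0.00373, and -0.40, q = 0.01). Atmin, a cofactor of Atm, rose in both genotypes (log2 0.36 and 0.38, q of 0.0135 and 0.0118), and Rif1, which acts with Trp53bp1, rose in Trp53-/- cells (0.38, q = 0.0142). Without Trp53-/- replicate 2 only 1 gene of this list rose there. Among 8 DNA-PK partners and end-joining genes, none passed in wild-type. In Trp53-/- cells Xrcc6, which encodes Ku70, rose by 0.31 on the log2 scale (q = 0.0215) and the nuclease gene Dclre1c fell by 0.29 (q = 0.0285), and neither passed without replicate 2, where the values were 0.32 and -0.27. The 7 genes that fold and mature Atm, Atr and Prkdc gave 1 higher and 2 lower in wild-type and 2 higher in Trp53-/- cells, among them Pih1d1, higher in both (0.30 and 0.53, q of 0.0275 and 0.00268), and 1 was higher in Trp53-/- cells without replicate 2.

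Downstream, 7 of 9 effectors of mitotic entry fell in wild-type (median -0.57) and 2 of 9 in Trp53-/- cells (median -0.22), and none rose. The list holds both promoters and inhibitors of entry. The inhibitory kinase genes Wee1 (log2 -0.57, q = 0.00162) and Pkmyt1 (-0.30, q = 0.0258) were among those that fell in wild-type. Plk1, the kinase that ends the checkpoint, fell by 0.86 in wild-type on the log2 scale (q = 0.00205), and the phosphatase gene Cdc25b by 0.72 (q = 0.00037). Cdc25c fell in both genotypes (-0.67 and -0.59, q of 0.0039 and 0.00817). None of the 9 differences passed, and no effector passed in Trp53-/- cells without replicate 2. Of 6 phosphatases that reverse checkpoint signals, Ppm1d and Ppp6c rose in both genotypes, by 0.35 and 0.31 in wild-type and by 0.29 and 0.34 in Trp53-/- cells (q between 0.0148 and 0.0316), and neither passed in Trp53-/- cells without replicate 2, where the values of replicate 1 alone were 0.39 and 0.34.

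Markers of the cell cycle were read in the same way. Of 18 S phase genes, 15 fell in wild-type and 3 rose in Trp53-/- cells, with medians of -0.44 and 0.07. The difference was below 0 for all 18, as for 10056 of all 19583 genes. It passed for 5, including Mcm3 (-0.73, q = 0.0267), Mcm6 (-0.70, q = 0.0286) and Uhrf1 (-0.67, q = 0.033). Without Trp53-/- replicate 2 the difference passed for 2. Of 18 G2 and M phase genes, 16 fell in wild-type and 8 in Trp53-/- cells, none of the latter without replicate 2. In these bulk samples fewer cells in a phase and less RNA per cell cannot be told apart, and the part of the cell cycle in the checkpoint values was not tested.

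**Figure D3:**
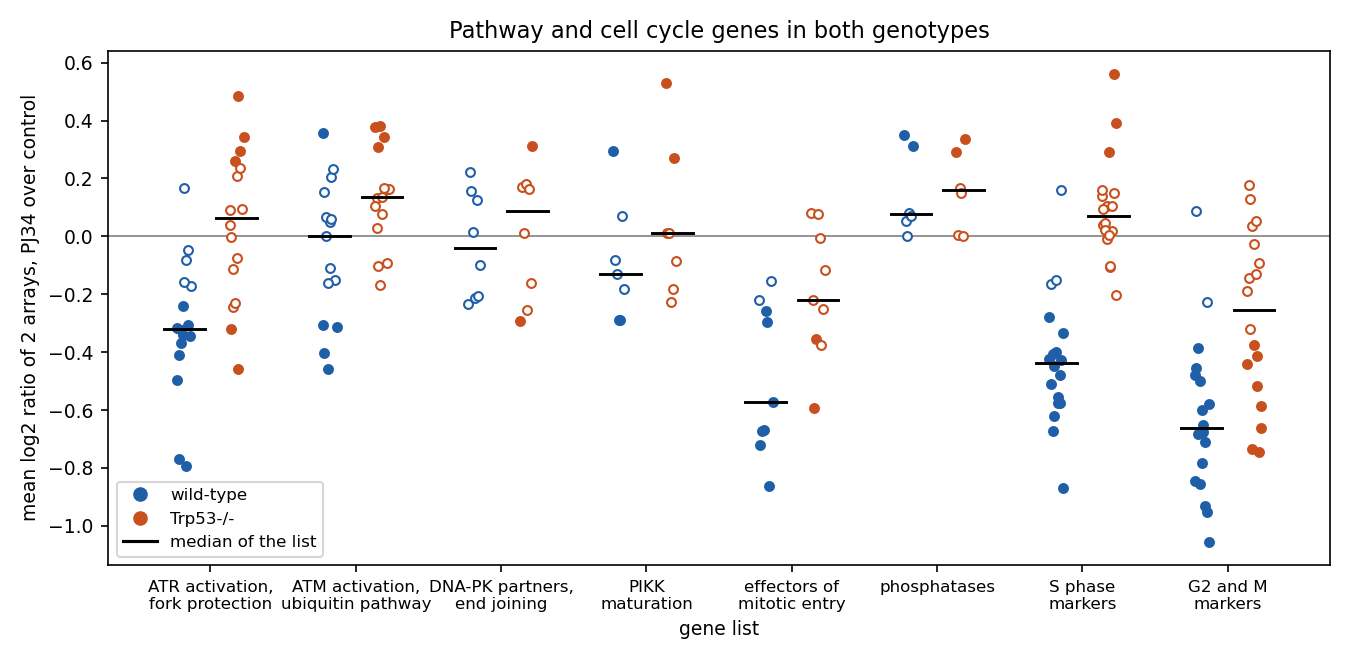
The vertical axis is the mean log2 ratio of PJ34 over control of 2 arrays, 1 point per gene, for wild-type (blue) and Trp53-/- (orange); filled points have q below 0.05 and black lines are list medians. Genes of Atr activation, effectors of mitotic entry and S phase markers sit lower in wild-type, with medians of -0.32, -0.57 and -0.44, than in Trp53-/- cells, with 0.06, -0.22 and 0.07.

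By their 4 log2 ratios, the gene nearest to Atm among 15031 well-measured genes was Timeless, at a root mean square distance of 0.06, and that nearest to Chek2 was Aspm, a spindle gene of neural progenitors (-0.26 and -0.46 in wild-type, 0.07 and -0.40 in Trp53-/-). Prkdc lay nearest to Spats2l, Mdc1 to Cpsf4 and Topbp1 to Rnf151, at distances of 0.01, 0.03 and 0.02. With 4 values a gene, close neighbours are common. Of the 10 probes, 6 lie on chromosome 9 (Atm, Atr, Atrip, Chek1, H2afx and Topbp1), which holds 5.07% of all genes measured. They did not respond alike: Atm and Topbp1 rose in Trp53-/- cells, H2afx fell in wild-type, and Atr and Atrip passed in neither.

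Untreated levels were compared between genotypes in the control channel, as Trp53-/- minus wild-type, after quantile normalization between arrays. None of the 10 passed in either direction, where 3.41% of all genes were higher and 3.28% lower. None reached 0.05 in limma before adjustment either, and none passed the study's criteria, which 1.84% of all genes passed as higher and 1.86% as lower. The log2 level of Topbp1 was 10.9 and 10.5 in wild-type and 10.3 on both Trp53-/- arrays, a difference of -0.41 (q = 0.153). Mdc1 had 11.3 and 10.4 against 10.4 and 10.4 (-0.46, q = 0.236), and Atm 9.27 and 8.18 against 8.33 and 8.16 (-0.48, q = 0.272). In all 3 genes wild-type replicate 1 was the highest array. With wild-type replicate 2 left out, Atm, Mdc1, Topbp1 and H2afx passed as lower and Atrip as higher, in a fit that called 23.9% of all genes higher and 24.1% lower. The levels of Topbp1 and Mdc1 did not overlap between genotypes, 2 of 10, and those of 56.1% of all genes likewise did not. The second Atm probe gave a difference of 0.05 (q = 0.531).

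**Figure D4:**
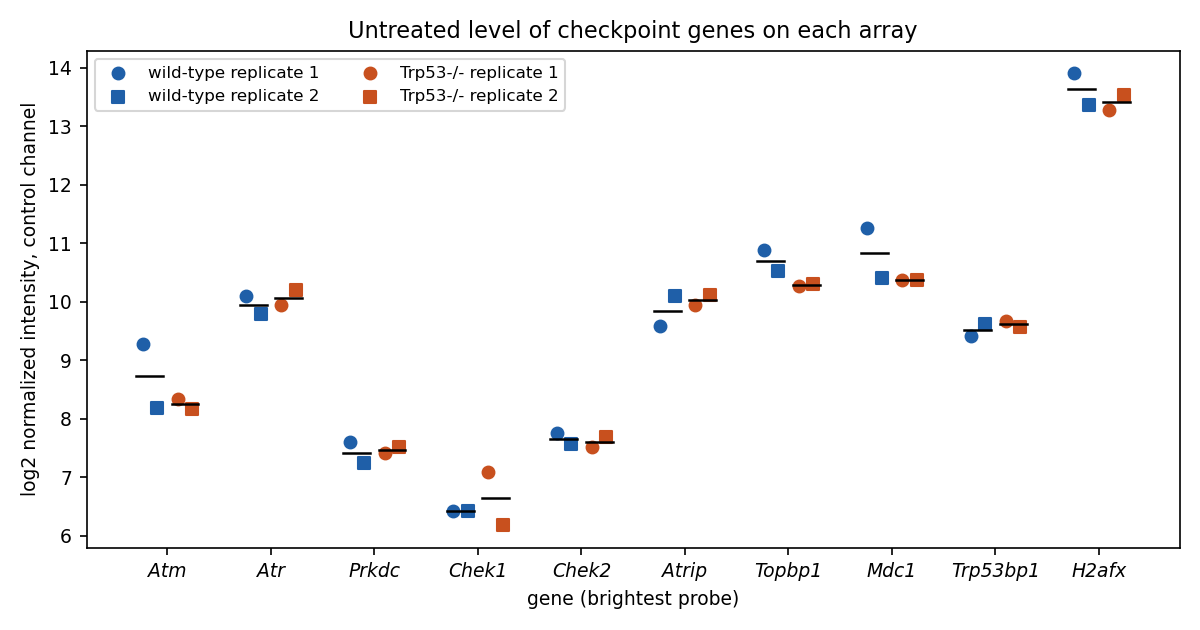
The vertical axis is the log2 normalized intensity of the control channel, 1 point per array, and black lines are genotype means. Points are to be compared within a gene only, since probes differ in brightness. For Atm and Mdc1 wild-type replicate 1 lies above the other 3 arrays, and Chek1 lies near background.

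The arrays of the genotypes were scanned in different years, so genotype and scan cannot be told apart in untreated levels, while each log2 ratio is made within an array. The difference of the responses still compares arrays of different years. A dye bias that changed between them cannot be told apart from genotype there. In untreated cells the Y-linked Eif2s3y and Ddx3y were lower in Trp53-/- by log2 differences of -2.59 and -2.05 (q of 0.0093 and 0.0092). Xist differed by 1.05 and was not called. Genotype and the sex of the cells thus cannot be told apart in untreated levels either. Among untreated cells, all 18 S phase genes were lower in Trp53-/- (median -0.44, none called), as were 9902 of all 19583 genes. Mbp, Gfap and S100b, markers of oligodendrocytes and astrocytes, were higher in Trp53-/- by 1.98, 2.38 and 1.89 on the log2 scale, and 4 of 9 genes of p53 and its regulators and targets were lower, Cdkn1a by a log2 difference of -2.70 (q = 0.0116). Their part in the levels of the checkpoint genes was not tested.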

How the data were processed

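Total RNA of PJ34-treated (Cy5) and control (Cy3) NSPCs was hybridized to Agilent SurePrint G3 mouse arrays, 2 per genotype. The authors deposited Feature Extraction 10.7.3.1 output per array: spot and local background intensity values in each colour, uncorrected, and log10 ratios, background-subtracted and dye-normalized by that software, used here only as an alternative. A table with 4 columns named by number only was not used.

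Intensities were background-corrected (limma 3.58.1 in R 4.3.3, normexp, offset 50) and log2 ratios normalized by loess within arrays. Control and outlier spots (228 to 276 per array) were left out and the spots of a probe averaged. A probe was kept when well above background in at least 1 channel on both arrays of a genotype (27029 of 55681 probes), and a gene was read from its brightest kept probe. Per channel and array, 21503 to 27154 probes were well above background and none was saturated. A linear model with a mean per genotype was fitted over 4 arrays (2 residual degrees of freedom, 10.5 after moderation). Genotype means, their difference and the untreated level (Aquantile) were tested, with Storey's q (smoother, lambda 0.05 to 0.95) over all kept probes, as in the study's methods. Gene names are those of the newest array design among the files. Replicate numbers were not stated to pair the samples, and the main fit did not pair them. The correlation of same-number deviations was -0.18 for ratios and 0.08 for untreated levels.

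The members and lists were chosen with earlier results of these data known. In each list and comparison, the genes named are at most 3 with the largest change among those that passed and moved alike on both arrays, the 10 checkpoint genes and Trp53, Cdkn1a and Mdm2 were always named, and for each checkpoint gene the nearest gene by its ratios was found. Wee1 and Pkmyt1 were named besides. The alternatives tried are given in the closing section.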

Additional observations from a re-analysis of the deposited data

Results flagged for a closer look

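The PJ34 response of Atm differed between the genotypes by a log2 value of -0.59 (wild-type minus Trp53-/-), which passed limma's test of the difference at q = 0.0474. Mdc1 was singled out because both wild-type arrays lay below 0 and both Trp53-/- arrays above it, with a difference of -0.57 that missed the threshold in the same test (q = 0.0544).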

How the results depend on the processing

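Each genotype could not be fitted alone for the difference. In the other combinations, 647 of 716 values of single genes kept their side of the threshold, 34 gained and 27 lost a call, and 8 turned in direction. A value was counted as turned only when it was called in the main or the alternative fit. Changes of sign in values called in neither are among the 647. The call of Prkdc in Trp53-/- passed in 20 of 20 alternatives, that of Atm in 19, of Topbp1 in 18 and of Mdc1 in 17, and in wild-type that of H2afx in 17 and of Chek2 in 15. With median centring over all probes, the median of all genes was 0.47 in wild-type and 0.64 in Trp53-/-, 67.2% of genes were then higher and 0.889% lower in wild-type and 75% and 1.03% in Trp53-/- (13.3% and 11%, and 12.2% and 10.2%, with loess). It gave 7 of the 10 genes higher and 0 lower in wild-type, 8 higher in Trp53-/- and 0 lower in the difference, and turned Atm (0.37), Atrip (0.53), Mdc1 (0.39), H2afx (0.22) and Topbp1 (0.56) in wild-type and Atrip (0.71) and H2afx (0.78) in Trp53-/-. Relative to the medians, Atm was at -0.09, Mdc1 at -0.08, H2afx at -0.25, Topbp1 at 0.09 and Atrip at 0.06 in wild-type, and Atrip at 0.07 and H2afx at 0.14 in Trp53-/-. Centring the kept genes after it, an alternative chosen after seeing the data, gave 2 lower in Trp53-/-, where it called 35.7% of all genes lower, and 0 in the difference and turned the dim Chek1 (-0.48). The cause was not tested.

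The scanner software's log ratios gave 0 lower in wild-type, 1 higher in Trp53-/- (Prkdc) and 0 in the difference. Over all genes they called 822 higher and 630 lower in wild-type, 376 and 216 in Trp53-/- and 0 and 0 in the difference, against 2598 and 2147, 2387 and 2002, and 243 and 81. Scaling between arrays, the strict filter, unadjusted p and the mean of a gene's probes gave 1 higher in wild-type, which was Prkdc. All but scaling between arrays gave 3 lower, with Mdc1. In that order they called 14.5%, 18%, 17.7% and 13.3% of all genes higher in wild-type. They called 12.1%, 16.8%, 14.3% and 11.3% lower. Benjamini-Hochberg adjustment gave 1 lower in wild-type, where it called 8.02% of all genes lower. In the difference, no background correction, an offset of 16, loess with centring on the kept probes, scaling between arrays and Benjamini-Hochberg gave 0 lower. Of all genes they called 0.148%, 0.0102%, 0.357%, 0.47% and 0.235% lower, in that order. No filter, the strict filter and the variance trend gave 2, and unadjusted p gave 4. Those settings called 0.336%, 0.75%, 0.383% and 7.02% of all genes lower. The mean of a gene's probes kept the count at 1, with Mdc1 in place of Atm, and called 0.465% of all genes lower. The replicate number as a block gave 0 lower in the difference, where it called 0.536% of all genes lower, and changed no other count. The crossed pairing, also chosen after seeing the data, gave 1 higher and 3 lower in wild-type and 3 lower in the difference. It called 17.6% of all genes higher and 13.9% lower in wild-type and 1.77% lower in the difference.

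With each array left out in turn, a lone array being assumed to vary like the others, the genes lower in wild-type numbered 0 to 2, those higher in Trp53-/- 2 to 4 and lower 0 to 1, those lower in the difference 0, and in untreated levels 0 to 1 higher and 0 to 4 lower. In untreated levels the share of all genes called was 23.9% higher and 24.1% lower without wild-type replicate 2, 16.7% and 19.6% without wild-type replicate 1, and 0 without either Trp53-/- array. Signal limits Chek1, which was well above background in the control channel of 1 array.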
